A study of Mus musculus with 6 samples.

Results

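The EGR transcription factors and their NAB corepressors are 6 genes, Egr1, Egr2, Egr3, Egr4, Nab1 and Nab2, taken by symbol from a table of read counts for 23284 genes. All 6 were found in the table, and all 6 passed the filter on low counts. The libraries were made from prefrontal cortex of wild-type C57BL/6 mice aged 8 to 10 weeks. In 1 group the mice had lived alone for 6 days (single-housed, 3 libraries), and in the other they had lived with cage mates for the same 6 days (group-housed, 3 libraries). The animals carried no allele or agent named in the labels. The labels do not tie each library to a separate animal, so the spread between libraries may be partly technical. Where 3 values are given for a group, alone (single-housed) or with company (group-housed), they are replicates 1, 2 and 3 in that order. The genes were chosen with their values in this same comparison known, so the housing differences below are given as a description with standard errors and without p-values.

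EGR proteins are zinc-finger transcription factors that bind GC-rich DNA, and their genes are immediate early genes, transcribed in neurons within minutes of synaptic activity without the need for new protein. In forebrain neurons calcium entry and the ERK kinases act on SRF with its ETS-family partners and on CREB, which occupy serum response and cAMP response elements near the EGR gene starts. NAB1 and NAB2 do not bind DNA themselves: they bind several of the EGR proteins and repress their targets, in part through the NuRD chromatin remodelling complex. NAB2 is itself known as an EGR-induced gene and so belongs to a negative feedback loop. Outside the brain, EGR2 is best known as the factor that Schwann cells need to make peripheral myelin.

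Promoter sequence from RefSeq (build GRCm38.p6) was matched for 4 of the 6 genes, Egr2, Egr4, Nab1 and Nab2, but not for Egr1 and Egr3. The 250 bases before the start site are shown for Egr2, Egr4 and Nab2, 5′ to 3′ on the coding strand, because Egr2 and Egr4 had the widest housing differences and Nab2 a narrow one. Capitals mark the CArG box bound by SRF and TGACG, the core of the cAMP response element, searched on both strands. The Egr2 window is chr10:67537619-67537868 on the plus strand, before the start site of the transcript whose 2 exons have the lengths of the deposited gene model. The Egr4 window is chr6:85513590-85513839 on the minus strand, and the Nab2 window is chr10:127666704-127666953 on the minus strand.
Egr2: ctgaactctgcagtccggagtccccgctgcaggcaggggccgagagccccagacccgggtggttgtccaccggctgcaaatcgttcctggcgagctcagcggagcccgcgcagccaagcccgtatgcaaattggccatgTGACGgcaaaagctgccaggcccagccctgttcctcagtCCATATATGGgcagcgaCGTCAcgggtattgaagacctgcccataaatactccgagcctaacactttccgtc
Egr4: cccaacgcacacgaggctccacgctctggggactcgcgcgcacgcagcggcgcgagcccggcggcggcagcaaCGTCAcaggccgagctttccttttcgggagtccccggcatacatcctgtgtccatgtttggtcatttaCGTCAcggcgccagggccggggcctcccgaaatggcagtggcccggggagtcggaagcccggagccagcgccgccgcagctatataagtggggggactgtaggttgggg
Nab2: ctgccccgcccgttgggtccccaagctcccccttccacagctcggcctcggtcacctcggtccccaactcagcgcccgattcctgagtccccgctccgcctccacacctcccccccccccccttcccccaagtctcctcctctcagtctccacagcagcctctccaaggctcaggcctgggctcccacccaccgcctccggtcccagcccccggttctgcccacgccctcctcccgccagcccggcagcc

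The Egr2 window held 1 CArG box, 72 to 63 bases before the start, and 2 TGACG cores, which start 111 and 55 bases before it. The Egr4 window held 2 TGACG cores, starting 177 and 109 bases before the start, and no CArG box. The Nab2 window held none of the motifs searched, while the Nab1 window held 1 TGACG core, starting 123 bases before its start. Over all 32851 RefSeq promoter windows of 300 bases, of which these 250 bases are the upstream part, 1.63% held a CArG box and 20.8% held TGACG. The full cAMP response element TGACGTCA, which contains TGACG, was in 1.79% of windows and in none of the members' windows. RefSeq lists 5 start sites for Egr2, and a CArG box lay in 4 of those 5 windows, 3 of which overlap and share the same box. The exact sequence CCGGAA, an ETS-type site (14.9% of windows), was in 1 of the 5, and TATAAA (13.6%) was in none of the members' windows. Shorter or other ETS-type sequences were not searched. These matches describe letters in a window and not occupied sites.

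The EGR-binding sequence GCGTGGGCG was found in the Nab1 window, and 30 bases around each of its 2 matches are shown with the match in capitals. The stretch around the first match is chr1:52500570-52500599, and that around the second is chr1:52500538-52500567. Both stretches are printed as the minus strand of GRCm38.p6, the coding strand of Nab1. The first match reads on the strand opposite to the printed one.
Nab1 match 1: gccccgcggcCGCCCACGCcgggatctgcg
Nab1 match 2: actcggccgcGCGTGGGCGggagccggagc

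The matches start 141 and 109 bases before the RefSeq start of Nab1, and a further EGR-type sequence, GCGGGGGCG, starts 38 bases before it. GCGTGGGCG was in 0.612% of all windows and GCGGGGGCG in 2.91%. None of the Egr2, Egr4 and Nab2 windows held either sequence.

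Total counts were 25858355 to 32088512 in group-housed and 32902303 to 33428512 in single-housed libraries. Counts of the 6 genes ran from 101 (Egr2, single-housed replicate 2) to 15261 (Egr1, group-housed replicate 2), so counting alone gave errors of 9.95% to 0.81%. These errors cover counting only. Cortical excitatory neuron markers, 10 of 10 of them tested, summed to 6057 to 6815 CPM (counts scaled to a common library total) and overlapped between the groups. Markers of neurons of the striatum, a region beneath the frontal cortex, were uneven between libraries of both groups. Of 16 listed, 15 were in the table, and 15 of 15 had a higher mean level in single-housed libraries (median log2 difference 0.92). Of these, 0 passed edgeR's test, which called 0% of all genes tested. For 1 of the 15 the groups did not overlap, with the single-housed libraries higher, against 2.46% of all genes tested. The part of these markers in the results was not tested beyond the values given with each gene. They summed to 2496, 1301 and 561 CPM alone and to 1259, 589.9 and 638 CPM with company. Schwann cell markers, of interest because of EGR2, included 2 genes, Pmp2 and Foxd3, with 0 counts in every library, while Prx had 51 to 75 counts. In bulk tissue, fewer cells of a type and less RNA per cell cannot be told apart.

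Egr1 was by far the most abundant member and Egr2 the scarcest. Levels of different genes are compared here per exon length, as TPM, the count divided by exon length and scaled to the same sum in every library. Over the 6 libraries Egr1 was at 349 ± 105 TPM (SD, n = 6), above 96.9% of the genes tested, and Egr3 at 149.6 ± 44.7 TPM. Nab2 (49.9 ± 6.21 TPM) and Egr4 (48.3 ± 15.7 TPM) came next, then Nab1 (14.7 ± 0.592 TPM) and Egr2 (6.82 ± 4.56 TPM). All neighbours in this order kept their order in 6 of 6 libraries except Nab2 and Egr4. Nab2 was above Egr4 in 3 of 3 single-housed libraries and below it in 3 of 3 group-housed libraries, so their means over all 6 libraries differed by less than the spread. Egr3 is counted over a short model of 1416 exon bases that spans 2713 bases, against 5297 bases for the gene in RefSeq, so its TPM depends on which part of the transcript was counted. The deposited model of Egr2 likewise spans 4320 bases against 7720 in RefSeq.

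**Figure D1:**
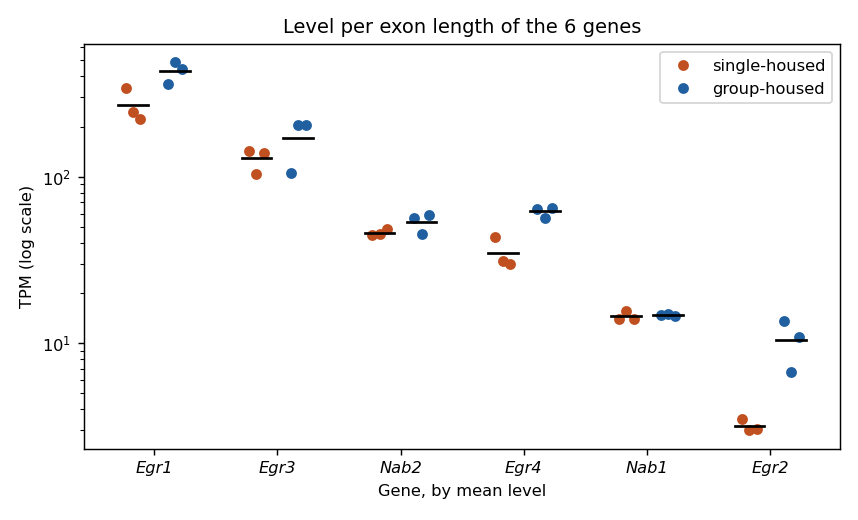
TPM (log scale) of each gene in each library, with genes ordered by mean level. Points are libraries and black lines are group means (n = 3). Egr1 lies highest and Egr2 lowest, and Nab2 and Egr4 exchange places between the housing groups.

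Summed over Egr1 to Egr4, the family was at 529, 381 and 394 TPM alone and at 542, 752 and 723 TPM with company. The groups did not overlap, but single-housed replicate 1 and group-housed replicate 1 lay close together. Egr1 made up 56.5% to 66.3% of this sum and Egr3 19.4% to 35.1% in any library. The share of Egr2 was 0.661% to 0.786% in single-housed libraries and 0.898% to 2.52% in group-housed libraries. Egr2 is thus a minor part of the family by level, while its level varied most. On the scale of CPM normalised by the TMM method it ranged 4.64-fold from the lowest to the highest library, against 2.04-fold for Egr3 and 1.11-fold for Nab1.

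Egr1, also known as Zif268 or Krox-24, is the member most often used as a marker of neuronal activity. On the CPM scale used from here on (counts scaled to a common library size by the TMM method), it was at 356, 254 and 233 CPM alone and at 382, 499.6 and 482 CPM with company. All 3 group-housed libraries were above all 3 single-housed ones, with a narrow gap between the 2 libraries numbered 1. The group means were 281 ± 65.6 and 454 ± 63.5 CPM (SD, n = 3 each), a log2 difference, single-housed minus group-housed, of −0.69 (SE 0.165). It was −0.90 without single-housed replicate 1 and −0.58 without single-housed replicate 3. Without the 3 libraries richest in striatal markers (single-housed replicates 1 and 2 and group-housed replicate 1), which leaves 1 library against 2, it was −1.08. Counting error for Egr1 was at most 1.14%, so nearly all of the spread within a group was between libraries.

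Egr4 (chromosome 6, 85461116 to 85463536 in mm9, minus strand, 2 exons), which encodes a more divergent member of the family, was at 30.9, 22.3 and 21.5 CPM alone. With company it was at 46.2, 39.8 and 48.4 CPM. The groups were well apart, and as for Egr1 the highest single-housed value was in replicate 1. Means were 24.9 ± 5.20 and 44.8 ± 4.47 CPM (SD, n = 3 each; log2 difference −0.85, SE 0.146), or 1.80-fold higher with cage mates. Relative to Egr1, Egr4 varied little in single-housed libraries, where Egr1 was 7.39 to 7.87 times Egr4 per length. In group-housed libraries the ratio was 5.64 to 8.58.

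Egr2, or Krox-20 (chromosome 10, 67000617 to 67004936 in mm9, plus strand, 2 exons), was at 3.54, 3.02 and 3.09 CPM alone, from 116, 101 and 103 counts. It was at 14.0, 6.71 and 11.5 CPM with company, from 373, 205 and 362 counts. The single-housed libraries were tightly grouped at a low level, and every group-housed library was above them, with a wide spread. The coefficient of variation was 8.82% in the single-housed group, no more than the counting error of 9.29% to 9.95%, and 34.6% in the group-housed group, where counting error was 5.18% to 6.98%. The log2 difference of −1.74 (SE 0.250, n = 3 each) was 3.33-fold, and none of the 15258 genes tested had a lower fitted value in this fit, although 501 of 19098 did with no filter on low counts. It was −1.50 without group-housed replicate 1 and −1.99 without group-housed replicate 2. Egr1 was 72.8 to 96.9 times Egr2 per length in single-housed libraries and 26.3 to 71.9 times in group-housed ones.

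Egr3 (chromosome 14, 70477252 to 70479964 in mm9, plus strand, 2 exons), a longer-lasting member that can follow Egr1 in stimulated neurons, did not separate the groups. It was at 69.4, 49.99 and 66.8 CPM alone and at 51.6, 96.4 and 101.8 CPM with company. Group-housed replicates 2 and 3 were above all single-housed libraries, but group-housed replicate 1 was among them. That library was the lowest of its group for Egr3 and the highest for Egr2. The log2 difference was −0.43 (SE 0.235, n = 3 each), −0.67 without group-housed replicate 1 and −0.26 without group-housed replicate 3. Per length, Egr3 was 34.7 to 45.3 times Egr2 in single-housed libraries, against 7.70 in group-housed replicate 1 and 30.1 and 18.5 in replicates 2 and 3. Its difference was the smallest of the 4 EGR genes, also with the mean of the striatal markers as a covariate (−0.26), where Egr1, Egr2 and Egr4 had −0.79, −1.90 and −0.98.

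**Figure D2:**
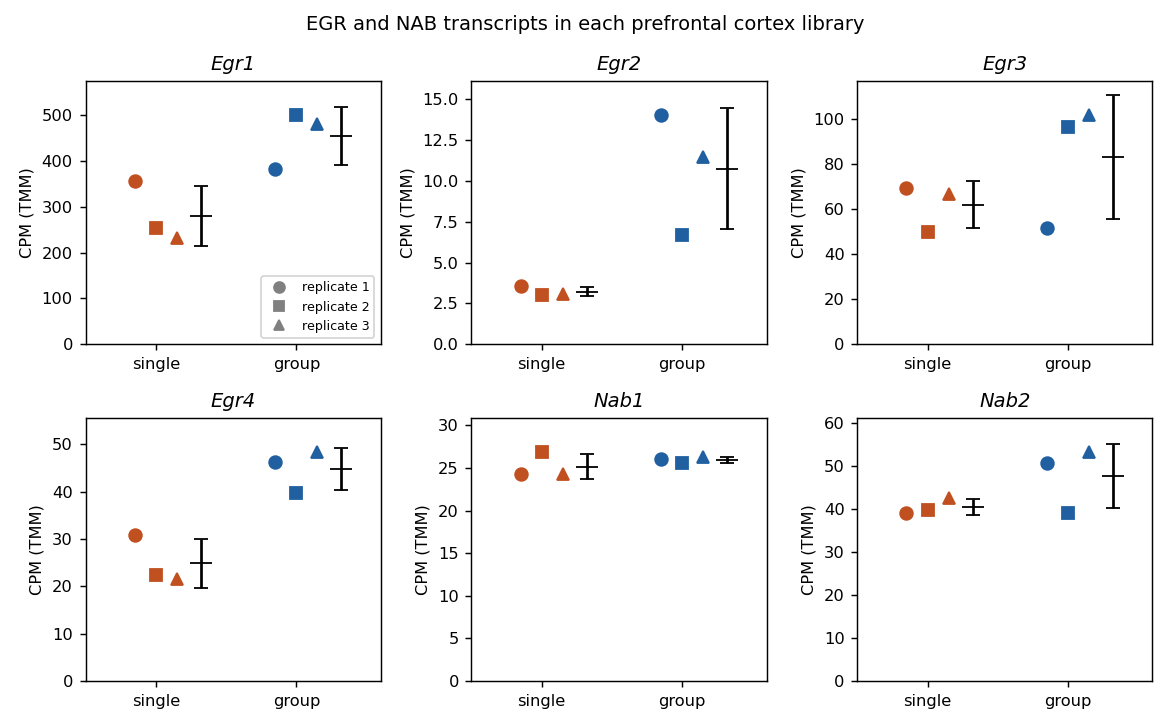
CPM (TMM-scaled, linear axes from 0) of each gene in each library, with marker shapes for replicate numbers and black bars for mean ± SD (n = 3). The groups do not overlap for Egr1, Egr2 and Egr4, group-housed replicate 1 is low for Egr3, and group-housed replicate 2 is low for Nab2.

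The corepressor genes varied less than the EGR genes. Nab2 (chromosome 10, 127097974 to 127103759 in mm9, minus strand, 7 exons) was at 39.0, 39.9 and 42.6 CPM alone and at 50.6, 39.1 and 53.3 CPM with company. Group-housed replicates 1 and 3 were above every single-housed library, and group-housed replicate 2 was level with them. These 2 high libraries were also the 2 with the highest Egr2 and Egr4. The log2 difference was −0.23 (SE 0.115, n = 3 each), −0.36 without group-housed replicate 2 and −0.15 without replicate 3 of that group, and −0.11 when the 3 libraries richest in striatal markers were dropped. The last exon of Nab2 overlaps that of Stat6, a cytokine-signalling factor on the opposite strand, by 70 bases, and the strand setting of the counting is not given in the sources used here. Stat6 was at 15.5 ± 1.33 CPM alone and 15.2 ± 1.03 CPM with company (SD, n = 3 each; log2 difference 0.03, SE 0.102).

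Nab1 (chromosome 1, 52512693 to 52557292 in mm9, minus strand, 8 exons) was nearly flat. It was at 24.3, 26.9 and 24.3 CPM alone and at 26.04, 25.5 and 26.3 CPM with company. The group-housed values lay inside the single-housed range, with a coefficient of variation of 1.49% that was below the counting error of 3.48% to 3.799%. The log2 difference was −0.05 (SE 0.0828, n = 3 each). It ran from −0.087 when single-housed replicate 2 was dropped to −0.023 and −0.020 when replicate 1 or replicate 3 of that group was, and was −0.094 in the fit that dropped the 3 libraries richest in striatal markers. Per length, Nab2 was 2.93 to 4.002 times Nab1 in any library. The EGR sum was 6.24 to 9.06 times the NAB sum in single-housed and 7.56 to 12.5 times in group-housed libraries, and these ranges overlapped.

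The 6 genes did not share a single pattern over the libraries. As a measure of likeness, each gene's log2 CPM was centred on its mean over the 6 libraries, and the root-mean-square (RMS) difference between 2 such profiles was taken: 0 means the same pattern and size of change. Egr1 and Egr4 were the closest pair of EGR genes (RMS 0.192), and 2 of 13779 genes outside the family were closer to Egr1 than Egr4 was. Egr2 and Egr3 were the farthest apart of the EGR pairs (0.868), although both were lower on average in single-housed libraries. For Egr2 the family member nearest in pattern was Egr4 (0.478), and for Egr3 it was Egr1 (0.316). Nab2 lay nearer to Egr4 (0.378) than to Egr1 (0.396), Egr3 (0.413) or Egr2 (0.751), but its nearest member was Nab1 (0.169), and both corepressor genes had small ranges. All of these distances use the same 6 libraries and include the housing difference by which the genes were chosen.

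**Figure D3:**
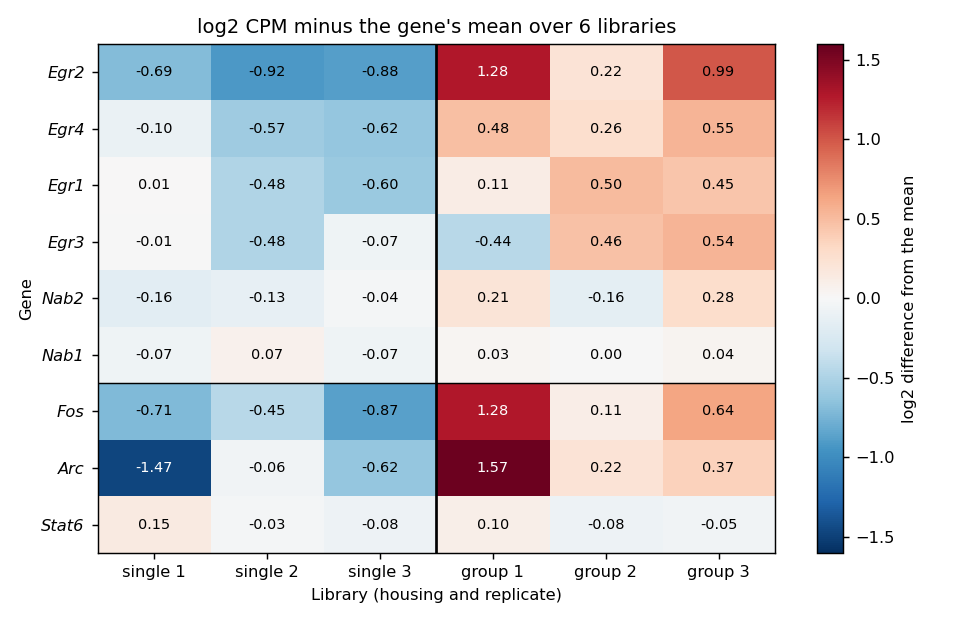
Each cell gives a gene's log2 CPM in a library minus its mean over the 6 libraries, for the 6 members and, below the line, for Fos, Arc and Stat6. Group-housed replicate 1 is at 1.28 for both Egr2 and Fos and at −0.44 for Egr3.

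Outside the family, the gene nearest to Egr2 was Fos (RMS 0.245), which encodes an AP-1 subunit, followed by Junb (0.513), another AP-1 subunit gene, and Nr4a1 (0.545), an orphan nuclear receptor gene. Fos was at 13.1, 15.7 and 11.6 CPM alone and at 52.0, 23.0 and 33.2 CPM with company, the same order of the group-housed libraries as for Egr2. Fosb, also an AP-1 subunit gene, was among the 3 nearest genes of both Egr1 (0.184) and Egr4 (0.187). The others were Pkn3 (0.174), a protein kinase gene, and Phf21b (0.219) for Egr1, and Scand1 (0.173) and Zfp771 (0.198) for Egr4. Pkn3 was scarce, at 0.78 to 1.77 CPM, so counting error weighs on its profile. In group-housed replicate 3 its centred log2 CPM was 0.08, against 0.45 for Egr1.

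Egr3 was nearest to Camk1g (0.0955), a calcium/calmodulin-dependent kinase gene, Cdkn1a (0.121), a cell cycle inhibitor gene, and Vasn (0.138). Camk1g was at 64.2, 56.2 and 66.5 CPM alone and at 51.6, 90.5 and 95.8 CPM with company, so it too was low in group-housed replicate 1. For the corepressors small distances are common: 10985 genes lay within 0.2 of Nab1 and 5902 within 0.2 of Nab2, against 28 for Egr3, 3 for Egr4, 2 for Egr1 and 0 for Egr2. The nearest were Wdr41, Thra and Tatdn2 for Nab1 (0.0139 to 0.0222) and Dbx2, 1110035M17Rik and H2afx for Nab2 (0.0387 to 0.0475).

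All 6 genes had a lower mean alone. The median of their log2 differences was −0.56, against 0.0015 over the 15258 genes tested. The mean log2 CPM of Egr1 to Egr4 was 5.35, 4.94 and 5.004 alone and 5.90, 5.91 and 6.18 with company, a difference of −0.90 (SE 0.157) between 5.10 ± 0.222 and 6.00 ± 0.157 (SD, n = 3 each). For Nab1 and Nab2 the difference was −0.13 (SE 0.0793). For 3 of the 6 genes, Egr1, Egr2 and Egr4, every single-housed library was below every group-housed one, and 2.4% of all genes tested were so placed. edgeR's quasi-likelihood test with Benjamini-Hochberg adjustment called 0 of the 6 and 0% of all genes. Without adjustment p was under 0.05 for 238 of all genes tested (1.56%). DESeq2 called 8 genes, 0.0524% of those with an adjusted p, of which 3 were Egr1, Egr2 and Egr4, and limma-voom called 0. Since the genes were chosen on this contrast, nothing is read from these counts.

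**Figure D4:**
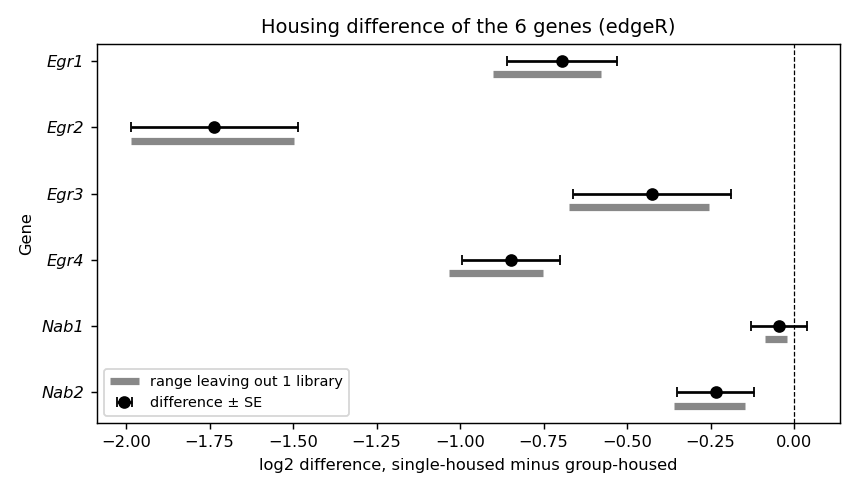
Points are log2 differences, single-housed minus group-housed, with SE (edgeR, n = 3 each), and grey bars are the range when 1 library is left out. Egr2 lies at −1.74 and Nab1 at −0.05, and every grey bar stays below 0.

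The mean log2 CPM of striatal markers was 6.604, 5.69 and 4.045 alone and 5.57, 4.04 and 4.38 with company. With that mean as a covariate, the mean difference of Egr1 to Egr4 was −0.95, against −0.90 without it, while that of Egr3 was −0.26 against −0.43. Without the 3 libraries richest in these markers the mean of the 4 genes was −1.04, where the lone single-housed library is assumed to vary like the others.

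Genes upstream of the EGR genes lay on both sides. Of 22 genes for ERK kinases, SRF, its ETS partners and CREB with its coactivators, 10 had a lower and 12 a higher level alone (median log2 difference 0.02). Of the 22, 0 passed edgeR's test in either direction, against 0% of all genes tested. Over all genes tested, 7519 had a lower and 7739 a higher level alone. The 3 with the smallest p were Rps6ka5, an ERK-activated kinase gene (0.31, SE 0.157, but 0.13 without single-housed replicate 1), Atf1, a CREB relative (−0.15, SE 0.104), and Elk1, an ETS partner of SRF (0.10, SE 0.0759, but 0.044 if single-housed replicate 3 is dropped, or 0.062 if group-housed replicate 1 is). With the striatal marker mean as a covariate Rps6ka5 was at 0.12 and Elk1 at 0.15, and without the 3 libraries richest in those markers they were at 0.10 and 0.16. Atf1 was the 1 gene of the list whose groups did not overlap, at 6.42 ± 0.0258 against 7.11 ± 0.354 CPM (SD, n = 3 each), where 2.4% of all genes tested were lower alone without overlap. Chosen after their values were seen, the transcript of Srf itself differed by −0.02 (SE 0.0863) and that of Creb1 by 0.09 (SE 0.0942).

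The NuRD components with which NAB proteins work also had small differences. Of 13 genes, 5 were lower and 8 higher (median 0.01), and 0 passed edgeR's test, against 0% of all genes tested. Hdac1, a histone deacetylase gene, differed by −0.16 (SE 0.133), Chd3, a chromatin remodeller gene, by 0.08 (SE 0.0691) and Mta1 by 0.06 (SE 0.0649). Without group-housed replicate 1, Hdac1 was at −0.071 and Mta1 at 0.029, and without the 3 libraries richest in striatal markers Hdac1 was at −0.089, Chd3 at 0.021 and Mta1 at 0.013. Mta1 was the 1 member whose groups did not overlap, at 82.7 ± 1.37 CPM alone and 79.4 ± 3.05 CPM with company (SD, n = 3 each), where 2.46% of all genes tested were higher alone without overlap. Chd4, the remodeller that binds NAB2, also chosen after its value was seen, differed by 0.08 (SE 0.0841).

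Genes reported elsewhere as EGR targets, many of them in other cell types, were also divided. Of 25, 11 had a lower and 14 a higher level alone (median 0.0056), and 0 passed edgeR's test, against 0% of all genes tested. Arc, a postsynaptic gene that is itself an immediate early gene, was at 43.5, 116 and 78.6 CPM alone and at 359, 141 and 157 CPM with company (log2 difference −1.46, SE 0.416; −0.91 without group-housed replicate 1). Its highest library was that of Egr2 and Fos, but its lowest was single-housed replicate 1, where all 4 EGR genes were at their highest for that group. Pdgfb, a platelet-derived growth factor gene, was at 34.6 ± 1.52 against 42.0 ± 3.77 CPM (−0.28, SE 0.0874) and Ache, the acetylcholinesterase gene, at 72.8 ± 0.926 against 66.3 ± 3.97 CPM (0.14, SE 0.0696), both without overlap between groups. Of the 25 genes, 2 (Arc and Pdgfb) were lower and 1 (Ache) higher alone without overlap, where 2.4% and 2.46% of all genes tested were so placed. Chosen after its value was seen, the GABA-A receptor subunit gene Gabra4, known from work on Egr3, differed by 0.12 (SE 0.0896).

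Other rapid primary response genes lay on the side of the EGR genes. Of 24, 21 had a lower and 3 a higher level alone (median −0.47), and for 7 the groups did not overlap with the single-housed libraries lower, against 2.4% of all genes. Of the 24, 0 passed edgeR's test, which called 0% of all genes tested. Arc and Klf4 are also in the lists of reported EGR targets and of GC-box binding factors. The 24 genes were chosen with earlier results of these data known, so nothing is read from their counts.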

How the data were processed

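RNA was extracted with a Qiagen column kit and made into libraries with a stranded mRNA kit (TruSeq), per the labels' protocols. The submitters' processing notes name FastQC, STAR, featureCounts and the mouse build mm9. Versions, annotation and strand setting were not given in these sources. The deposited table holds unnormalized read counts, with the exon length of each gene, and every library column was used.

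Genes were filtered with filterByExpr (minimum count 10, minimum total 15; 15258 of 23284 kept) and tested with edgeR 4.0.16 (R 4.3.3; quasi-likelihood, TMM, Benjamini-Hochberg, threshold 0.05), with SE derived from F. log2 CPM used a prior count of 2. TPM was computed from counts and deposited lengths. The script was tested on simulated data. Alternatives were DESeq2 (1.42.0), limma-voom (3.58.1), other scalings and filters, robust fitting, each library left out, a replicate block and striatal markers. Named genes were the 6 members, the 3 of smallest p in each pathway list, the 3 of nearest pattern to each member (mean CPM at least 1), genes overlapping a member, Fos and Arc; some genes that this rule names are not reported here. Members, lists and alternatives were chosen with earlier results of these data known.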

Additional observations from a re-analysis of the deposited data

How the results depend on the processing

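The mean difference of Egr1 to Egr4 was −1.04 to −0.81 and that of Nab1 and Nab2 −0.21 to −0.09 over 17 alternatives each. Each of the 6 members stayed below 0 in 16 of 16. These fits reuse the libraries and the contrast on which the genes were chosen, so a constant sign is not separate evidence. For Nab1 the main difference of −0.05 was smaller than its SE of 0.0828. Leaving out 1 library gave −1.03 to −0.81 for the EGR mean and −0.21 to −0.09 for the NAB mean. Genes called lower were 0 in the main test, 0 to 1 without 1 library (Nptxr without group-housed replicate 1, Egr2 without group-housed replicate 2), 6 with DESeq2 and 3 without the 3 libraries rich in striatal markers (Arc, Egr1 and Nptxr). Genes called higher were 0, 0 without 1 library, 2 with DESeq2 and 1 (Capn11) in that smaller fit. Egr2 had the lowest value of all genes with TMM, both other scalings and a mean CPM above 1, but 1 gene was lower each with DESeq2, the replicate block and the striatal covariate, 501 with no filter, 1 to 4 without 1 library and 35 without the 3 libraries rich in striatal markers. Leaving out 1 library turned the sign of Stat6 (−0.046 to 0.084), Mal (−0.42 to 0.36) and Prx (−0.037 to 0.23). Stat6 was also at −0.048 with the striatal covariate and at −0.015 without the 3 libraries. The 3 genes nearest in pattern were the same for each member under both other scalings.

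The labels name no pairing of libraries by replicate number. Same-numbered deviations correlated at 0.27, −0.32 and 0.17 across genes. No reference values were set beside these, so they do not decide whether same-numbered libraries belong together. With the replicate number as a block, the EGR mean difference was −0.91, the NAB mean difference −0.13, and 0 genes were called, with no other call changed. Depth limits Egr2 most, at 101 to 373 counts per library.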

Other observations

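Factors that bind the same GC-rich DNA as EGR proteins were also counted. Of 7 listed, 6 were tested, 2 lower and 4 higher in single-housed libraries (median log2 difference 0.02). Of these, 0 passed edgeR's quasi-likelihood test, which called 0% of all genes tested. Klf10 was at 27.4, 40.4 and 45.8 CPM alone and at 53.1, 40.2 and 65.0 CPM with company (replicates 1, 2 and 3 in order; −0.48, SE 0.211), with overlapping groups. Leaving out single-housed replicate 1 gave −0.29 for Klf10, leaving out group-housed replicate 3 gave −0.30, and dropping the 3 libraries rich in striatal markers (single-housed replicates 1 and 2 and group-housed replicate 1) gave −0.20. Klf4 was at 3.54 ± 0.123 against 4.27 ± 0.433 CPM (SD, n = 3 each; −0.27, SE 0.135), without overlap, where 2.4% of all genes tested were lower alone without overlap. Sp4 differed by 0.10 (SE 0.0880), or by 0.061 when group-housed replicate 1 was left out.

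Genes that EGR2 is known to control in myelinating Schwann cells lay on both sides. Of 8 listed, 7 were tested, 4 lower and 3 higher (median −0.03), and 0 passed, against 0% of all genes tested. Prx differed by 0.08 (SE 0.181) and Mal by −0.10 (SE 0.384). Both changed sign when 1 library was left out, Prx to −0.037 without group-housed replicate 2 and Mal to 0.36 without group-housed replicate 1 and 0.17 without single-housed replicate 3. Oligodendrocytes also express several of these genes, and their own markers summed to 1275 to 2607 CPM in single-housed and 1235 to 3511 CPM in group-housed libraries. Of these markers, 7 of 7 had a lower mean level in single-housed libraries (median log2 difference −0.06).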
